A study of Mus musculus with 4 samples.

Results

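Epha5, Epha7, Efna3 and Efna5, 4 of the 49671 genes in the deposited tables, were followed through the neuronal lineage of the mouse olfactory epithelium and among its mature neurons. The genes were taken by name, by a rule that uses no measured value, though earlier results of these data were known when they were chosen. Outbred CD-1 mice gave the tissue on the day of birth (P0) and on postnatal days 3 (P3), 7 (P7) and 21 (P21). Its cells were counted one by one for their transcripts, in 1 library for each of the 4 ages. By its title, the study concerns a population of neurons required for the olfactory map, the ordered wiring of sensory axons onto the olfactory bulb. Cells were freed with papain and loaded as sorted samples for 3' counting with unique molecular identifiers (UMIs), and the 4 libraries carry no label of a treatment or an altered gene. The sources used here give neither the gate of the sort nor the number and sex of the mice in each library. With 1 library per age, age and library cannot be told apart.

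Eph receptors are tyrosine kinases on the cell surface, and ephrins are their membrane-bound ligands. Ephrin-A proteins are held in the membrane by a lipid anchor and mainly bind EphA receptors, and signals can run into both of the touching cells, often ending in repulsion of a growth cone. In the olfactory system, axons of neurons that express the same odorant receptor converge on shared glomeruli, and ephrin-A and EphA proteins, present at different levels on different sets of these axons, are known as part of the code by which axons sort. Epha5 and Epha7 encode receptors of the A class, and Efna3 and Efna5 encode ephrin-A3 and ephrin-A5.

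After removal of 12, 0, 2 and 2 cells with few genes or much mitochondrial RNA, 2691, 3220, 1785 and 1414 cells remained at P0, P3, P7 and P21. Total depth ran from 6850885 UMIs at P21 to 17770838 at P3. Cells were placed by their own UMIs. Omp, the olfactory marker protein of mature neurons, and Gap43, a growth cone protein of immature ones, were each counted as present at 3 UMIs or more. Omp cells, with at least 3 Omp UMIs, numbered 611, 616, 475 and 957. They divide into Omp-gated cells, with fewer than 3 Gap43 UMIs, and double-gated cells with at least 3 of both, which made up 47.3%, 53.4%, 29.9% and 14.7% of Omp cells. Gap43-gated cells had at least 3 Gap43 UMIs and fewer than 3 of Omp. Markers not used by the gates followed their order. Mature-neuron markers such as Cnga2 and Adcy3 summed to 8505 to 15894 CPM (UMIs per 1000000 UMIs of the same group of cells) in Omp-gated cells and 442 to 631 CPM in Gap43-gated cells. The P0 and P3 libraries shared 68 cell barcodes, 40 of them placed in the same gate in both. The other pairs of libraries shared 1 to 9, and no call on the 4 genes changed without any of these barcodes.

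All 4 genes were higher in mature than in immature neurons, and Epha5 made the largest step of the 4. In Omp-gated cells Epha5 reached 193, 199.9, 286 and 425 CPM at P0, P3, P7 and P21. In Gap43-gated cells it stood at 12.4, 8.10, 8.79 and 5.97 CPM, below the Omp-gated value of each library. Those low values are not above the 14.6 CPM (95% interval 6.67 to 27.7) of leukocyte-gated cells, a cell type in which a neuronal gene is read as background, and are read as no more than that. The difference was 4.84 on the log2 scale (SE 0.18, adjusted p = 3.9e-10, higher in 4 of 4 libraries, edgeR quasi-likelihood test with the library as a block and Benjamini-Hochberg adjustment over 10115 genes). Because the lower group lies at background, this difference is set partly by that background.

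The ephrins were already detected before maturity. Efna3, which encodes ephrin-A3, stood at 211, 261, 257 and 297 CPM in Gap43-gated cells of P0, P3, P7 and P21 and at 488, 821, 891 and 835 CPM in Omp-gated cells. The ranges of the 2 gates are separate, a trait that was not counted over other genes. Leukocyte-gated cells had 27.5 CPM of Efna3 (16 to 44.1), below every neuronal gate. Efna5, which encodes ephrin-A5, stood at 59.2, 61.3, 65.4 and 74.6 CPM in Gap43-gated cells and at 184, 205, 254 and 179.8 CPM in Omp-gated cells. Both gates lie above the leukocyte interval of Efna5, 6.67 to 27.7 CPM. From Gap43-gated to Omp-gated cells Efna3 rose by 1.69 on the log2 scale (SE 0.10, adjusted p = 1.6e-08) and Efna5 by 1.84 (SE 0.11, adjusted p = 1.7e-08), both in 4 of 4 libraries by the same edgeR test.

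Epha7, the other receptor, was sparse at every stage. Its Omp-gated level was 19.7, 27.4, 23.9 and 75.9 CPM at P0, P3, P7 and P21, from 26, 39, 38 and 265 UMIs. Gap43-gated cells held 9.27, 6.69, 8.30 and 7.46 CPM, and the interval of the leukocyte-gated level of 1.62 CPM reaches to 9.03. Epha7 was higher in Omp-gated cells by 2.04 on the log2 scale (SE 0.27, adjusted p = 2.8e-05, 4 of 4 libraries, edgeR). All 4 genes were thus called higher in this comparison, in which 30.1% of the genes tested were called higher and 30.7% lower.

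Markers of other cells were low in both gates: the 5 stromal markers summed to 7.44 to 73.6 CPM in Omp-gated and 7.46 to 43.3 CPM in Gap43-gated cells, and the 4 microvillar markers to at most 3.97 CPM in either gate.

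**Figure D1:**
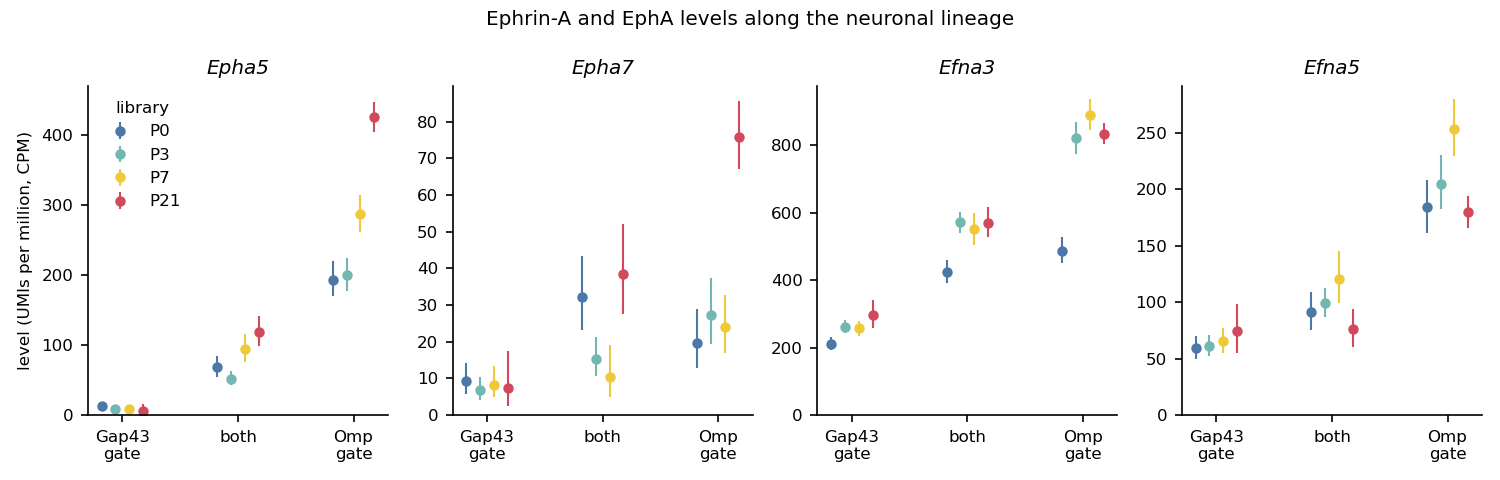
Level of each gene (vertical axis, CPM, linear from 0 and scaled for each gene) in 3 gates of the neuronal lineage (horizontal axis; "both" is the double gate), with 1 point per library and exact 95% Poisson intervals that cover counting error only. Epha5 lies at or below 12.4 CPM in Gap43-gated cells, and Efna3 is at or above 211 CPM in every gate and library.

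Since the 4 genes moved together from immature to mature neurons, the 250 bases before their RefSeq start sites (build GRCm38.p6, read along the gene) were set side by side and searched on both strands for 5 short motifs. The capitals below mark a match, which describes letters and is neither a site nor a cause. The Epha5 window, chr5:84417383-84417632 on the minus strand, holds TAATTA, the core that many homeodomain proteins bind, 230 bases before the start site. The window of the second Epha7 start, chr4:28812895-28813144 on the plus strand, holds TAATTG at 19 bases. The window of an Efna3 start, chr3:89322940-89323189 on the minus strand, opens with CAGATG, an E-box. The Efna5 window, chr17:62881318-62881567 on the minus strand, holds none of the 5.
Epha5: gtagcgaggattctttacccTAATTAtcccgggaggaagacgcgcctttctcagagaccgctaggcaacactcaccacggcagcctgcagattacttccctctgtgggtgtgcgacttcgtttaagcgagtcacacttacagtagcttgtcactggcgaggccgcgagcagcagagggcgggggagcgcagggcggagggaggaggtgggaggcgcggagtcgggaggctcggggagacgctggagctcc
Epha7: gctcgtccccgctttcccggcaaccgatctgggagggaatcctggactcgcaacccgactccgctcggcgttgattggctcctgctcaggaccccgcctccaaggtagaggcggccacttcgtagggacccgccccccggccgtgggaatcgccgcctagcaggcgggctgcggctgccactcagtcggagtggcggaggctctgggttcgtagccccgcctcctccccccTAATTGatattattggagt
Efna3: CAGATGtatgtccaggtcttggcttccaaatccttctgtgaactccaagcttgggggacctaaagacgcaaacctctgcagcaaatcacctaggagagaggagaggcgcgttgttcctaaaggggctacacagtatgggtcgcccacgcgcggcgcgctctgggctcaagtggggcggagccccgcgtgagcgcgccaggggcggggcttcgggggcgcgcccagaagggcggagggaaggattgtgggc
Efna5: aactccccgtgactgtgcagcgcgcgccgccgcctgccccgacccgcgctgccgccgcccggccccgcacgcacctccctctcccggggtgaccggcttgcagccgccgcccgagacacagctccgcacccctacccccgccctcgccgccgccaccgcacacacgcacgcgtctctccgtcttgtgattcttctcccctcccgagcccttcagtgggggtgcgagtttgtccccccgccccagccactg
Among 32851 windows of the same length before RefSeq starts, TAATTA was found in 4.84%, TAATTG in 7.17% and CAGATG in 14.4%. The palindromes of the Ebf (Olf-1) family and of nuclear factor I were found in 0.779% and 0.0365%, and in none of the windows of the 4 genes. The other starts of Epha7 and Efna3 held no match, so no motif was shared by the 4 genes.

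With age, the receptors rose most among Omp cells. Epha5 stood at 130.3, 109, 214 and 353 CPM in Omp cells of P0, P3, P7 and P21. The P21 level was 2.71 times the P0 level (95% interval 2.41 to 3.05, counting error only), the P7 level 1.64 times (1.43 to 1.88) and the P3 level 0.834 times (0.721 to 0.966). Over all Omp cells Epha5 was therefore lowest at P3 and highest at P21, with no overlap between the intervals of P0, P7 and P21. Epha7 stood at 26.0, 19.9, 18.8 and 67.1 CPM. Its P21 level was 2.58 times that of P0 (1.98 to 3.41), while the ratios at P3 and P7, 0.766 (0.545 to 1.08) and 0.724 (0.490 to 1.06), had intervals that include 1. A difference of at least 2-fold over P0 was thus reached at P21 by Epha5 and Epha7, in a comparison in which 6.55% of 8767 genes passed 2-fold upward and 4.22% downward.

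The ephrins changed less. Efna3 stood at 456, 667, 763 and 773 CPM in Omp cells, 1.46 times the P0 level at P3 (1.37 to 1.57), 1.67 times at P7 (1.56 to 1.80) and 1.70 times at P21 (1.59 to 1.81). It had come close to its P21 level by P7. Efna5 stood at 137, 139.9, 204 and 156 CPM and was highest at P7, at 1.49 times P0 (1.30 to 1.71), and at P21 its ratio was 1.13 (0.999 to 1.29). At P3 none of the 4 genes reached 2-fold, where 3.76% of genes did so upward and 1.94% downward, nor did any at P7, where the shares were 5.19% and 2.51%.

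The makeup of Omp cells moved with age. Double-gated cells fell from 47.3% to 14.7% of Omp cells between P0 and P21. Within Omp-gated cells, the mature-neuron markers other than Omp rose from 9774 to 15894 CPM and the immature ones other than Gap43 went from 982 to 535 CPM. In Omp-gated cells alone, the P21 level of Epha5 was 2.20 times that of P0 and that of Epha7 was 3.85 times, while Efna3 stood at 1.71 and Efna5 at 0.980 times. Epha5 at P3 was there 1.03 times its P0 level (0.870 to 1.23), so it was not lower than at P0. Epha7 was 1.39 times its P0 level at P3 (0.823 to 2.37) and 1.21 times at P7 (0.717 to 2.08). The part of maturity within the gate in these ratios was not tested. In double-gated cells Epha5 stood at 68.0, 51.9, 93.6 and 118 CPM, below the Omp-gated level of the same library at each age, and Epha7 at 32.1, 15.3, 10.4 and 38.4 CPM. The Epha7 intervals of the 2 gates overlap at P0 (12.9 to 28.9 in Omp-gated, 23.3 to 43.3 in double-gated cells) and are separate at P21.

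At P7 and P21 the share of Omp cells with Epha5 lay below that of an even spread. Omp cells here include double-gated cells, in which Epha5 was lower than in Omp-gated cells at each age. The part of this mixture in the spread was not tested. To compare cells of equal depth, each Omp cell was thinned to 2000 UMIs, which left out 57, 54, 55 and 147 shallower cells and kept 554, 562, 420 and 810. Epha5 was then detected in 20%, 18.0%, 34.3% and 43.1% of cells at P0, P3, P7 and P21, and before thinning in 34.2%, 37.2%, 53.5% and 63.2%. At P21, 461 thinned cells had no Epha5 UMI, 211 had 1, 74 had 2 and 64 had 3 or more, up to 7. An even spread of the same UMIs over cells would give at least 1 to 52.9% of them, against the 43.1% observed (exact binomial interval 39.6% to 46.6%). The even shares of Epha5 were 22.3%, 21.2%, 39.9% and 52.9%. At P7 (29.8% to 39.0%) and P21 the interval of the observed share lay below the even share, and at P0 (16.8% to 23.6%) and P3 (14.9% to 21.4%) it included it.

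Efna5, the ligand gene with fewer UMIs, was detected in 19.7%, 23.8%, 29.8% and 27.2% of thinned cells, against even shares of 22.9%, 28.7%, 35.6% and 29.7%. Its interval lay below the even share at P3 (20.4% to 27.6%) and P7 (25.4% to 34.4%) and included it at P0 and P21. Efna3 was the widest: 52.9%, 64.9%, 73.3% and 72.1% of thinned cells had a UMI, and up to 11 UMIs fell in 1 cell. These shares and their intervals lay below the even shares of 59.2%, 74.2%, 81.9% and 80.5% in all 4 libraries. Epha7 was detected in 4.51%, 4.80%, 3.33% and 14.3%, against even shares of 4.76%, 4.69%, 3.97% and 15.0%. Its intervals include the even share in each library. Leukocyte-gated cells thinned in the same way (130 cells, median depth 2399 UMIs, against 4428 to 6566 in Omp cells) had Epha5 in 0.769% (0.0195% to 4.21%), Epha7 in 0.769% (0.0195% to 4.21%), Efna3 in 4.62% (1.71% to 9.78%) and Efna5 in 2.31% (0.478% to 6.60%). The Epha7 intervals of P0, P3 and P7 start at 2.94%, 3.19% and 1.83%, within the leukocyte interval. These 130 cells therefore cannot separate Epha7 detection in single cells before P21 from background. Among other cells thinned in the same way, 350 horizontal basal cells had Epha7 in 0.286% (0.00723% to 1.58%), below those intervals. Stromal cells (763) had it in 2.88% (1.82% to 4.33%), which overlaps them. Summed over Omp cells, the Epha7 levels of P0, P3 and P7 (26.0, 19.9 and 18.8 CPM) lay above the leukocyte interval, which reaches 9.03 CPM.

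The spread over cells can be read against other genes. The variance of Epha5 over its mean was 1.26, 1.50, 1.46 and 1.79 at P0, P3, P7 and P21, where 1 is what random sampling alone gives. Its overdispersion, the excess of variance scaled by the squared mean, exceeded that of 90.1%, 95.6%, 85.4% and 90.2% of 5098 to 5499 genes with a mean of at least 0.05 UMI per cell. For Efna5 the figures were 93.4%, 91.6%, 89.9% and 82.4% of genes, and for Efna3 74.4%, 71.9%, 72.3% and 74.4%. Epha7 met the minimum at P21 alone, where it exceeded 84.4% of genes. These ranks are descriptions of single libraries, over Omp-gated and double-gated cells together. Epha5, Efna3 and Efna5 were lower in the double-gated cells of each library, and the part of this in the ranks was not tested.

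**Figure D2:**
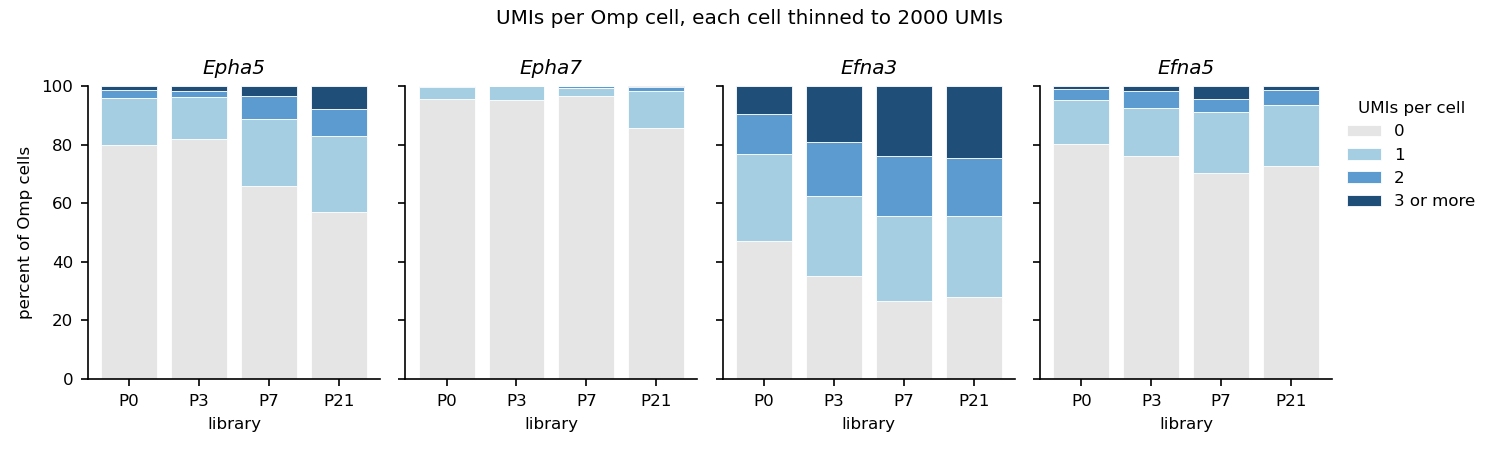
Percent of Omp cells (vertical axis) with 0, 1, 2 or 3 or more UMIs of each gene after thinning each cell to 2000 UMIs, by library (horizontal axis). Cells without a UMI of Epha5 fall from 443 of 554 at P0 to 461 of 810 at P21, and Efna3 is the gene most often present.

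Within Omp cells the receptors went with each other. Omp cells with at least 1 Epha5 UMI after thinning (111, 101, 144 and 349 cells) were compared with those without (443, 461, 276 and 461), summed per library. Epha7 stood at 36.0, 49.5, 34.7 and 125 CPM in Epha5-detected cells of P0, P3, P7 and P21, against 21.4, 18.4, 12.7 and 48.8 CPM in undetected ones, higher in each library. The difference was 1.31 on the log2 scale (SE 0.22, adjusted p = 4.2e-04, edgeR with the library as a block). It rests largely on P21, which gave 87 Epha7 UMIs in detected cells against 8 to 10 in each other library. Without P21 the difference was 1.22 with an adjusted p of 0.133. DESeq2 gave no adjusted p for Epha7 in this split. Efna3 (log2 difference -0.19, SE 0.09, adjusted p = 0.358) and Efna5 (-0.33, SE 0.14, adjusted p = 0.260) did not pass the test, and each was lower in detected cells of 3 libraries and higher at P3. In this comparison 1.68% of 6855 genes were called higher and 1.60% lower.

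Maturity moved with detection. Epha5-detected cells had less Gap43 (log2 difference -1.59, SE 0.10, adjusted p = 1.1e-12) and less Gng8, a G protein subunit of immature neurons (-2.52, SE 0.16, adjusted p = 4.2e-12), in 4 of 4 libraries. They had slightly more Omp (0.34, SE 0.07, adjusted p = 0.00561). The same comparison was therefore run in cells with fewer than 3 Gap43 UMIs alone, a choice made with the values in view. There Omp (0.01, adjusted p = 0.985) and Gap43 (0.25, adjusted p = 0.769) did not pass the edgeR test. Because the choice of cells held Gap43 under 3 UMIs, its value cannot show that maturity was equal in the 2 groups. Epha7 was still higher in Epha5-detected cells (1.28, SE 0.25, adjusted p = 0.00354, higher in 3 of 4 libraries), and both ephrins were lower in 4 of 4 libraries: Efna5 with a log2 difference of -0.67 (SE 0.13, adjusted p = 0.00519) and Efna3 with -0.39 (SE 0.08, adjusted p = 0.00528). Of 4710 genes tested in these cells, 0.510% were called higher and 0.361% lower.

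Counts of cells show the same pairs at P21. Among Omp-gated cells thinned to 2000 UMIs, Efna5 was detected in 22.0%, 27.5%, 29.5% and 21.4% of cells with Epha5 and in 24.9%, 36.3%, 39.2% and 37.3% of cells without. At P21, 68 cells held both, where the product of the separate shares gives 94.6. Many cells thus held both, and the intervals of the shares overlap in the 3 earlier libraries. Epha7 was detected in 23.3% of P21 cells with Epha5 (18.7% to 28.3%) and in 9.32% of those without (6.50% to 12.8%). The shares with and without Epha5 were 2.44% and 2.65% at P0, 8.70% and 3.57% at P3, and 5.74% and 3.80% at P7. Their intervals overlap in each of these libraries. The ephrins went together: Efna5 was detected in 28.0%, 39.3%, 39.7% and 33.3% of cells with Efna3 and in 19.0%, 18.8%, 16.1% and 19.9% of cells without. Shares of cells are given as descriptions, with no test over cells.

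**Figure D3:**
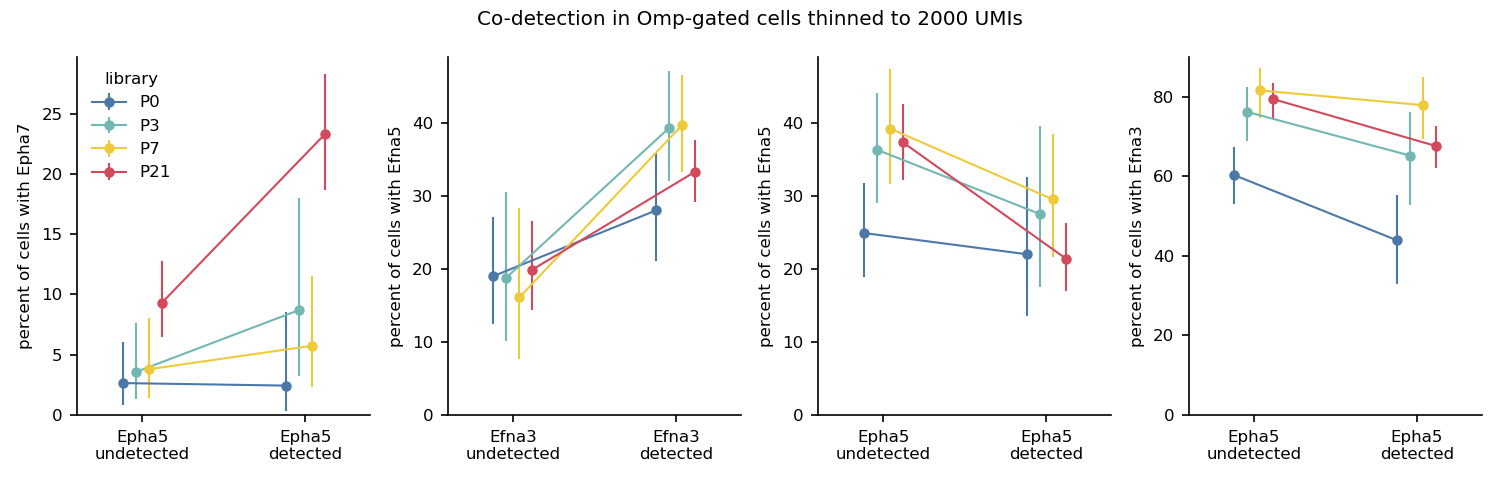
Percent of Omp-gated cells, thinned to 2000 UMIs, in which the gene named on each vertical axis was detected, split by detection of the gene on the horizontal axis, with 1 line per library and exact 95% binomial intervals. The share with Efna5 is higher where Efna3 is detected in each library, and at P21 it is 21.4% where Epha5 is detected against 37.3% where it is not.

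The reverse split, by Efna5, gave the ephrin pair. Omp cells with Efna5 (109, 134, 125 and 220 cells) had 647, 925, 1184 and 1111 CPM of Efna3, and those without had 399, 599, 714 and 708 CPM. Efna3 was higher in every library, by 0.68 on the log2 scale (SE 0.06, adjusted p = 3.0e-08, edgeR), and its call held whichever library was left out. Epha5 (log2 difference -0.39, SE 0.13, adjusted p = 0.112) and Epha7 (-0.75, SE 0.28, adjusted p = 0.182) did not pass the test in all Omp cells. In cells with fewer than 3 Gap43 UMIs, Epha5 was lower (log2 difference -0.63, SE 0.12, adjusted p = 0.00135, lower in 4 of 4 libraries). Among 6240 genes, 1.23% were called higher and 1.03% lower in Efna5-detected cells, and in the cells with few Gap43 UMIs 0.585% and 0.686% of 4955 genes. Gap43 was lower in Efna5-detected cells too (-1.05, SE 0.09, adjusted p = 5.0e-09), and Omp higher (0.28, SE 0.06, adjusted p = 0.00356).

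Other genes of axon sorting differed in the splits as well. Kirrel2, a homophilic adhesion molecule of the immunoglobulin family on olfactory axons, was higher in Epha5-detected cells (1.17, SE 0.10, adjusted p = 6.5e-10) and lower in Efna5-detected cells (-0.75, SE 0.11, adjusted p = 5.6e-05), in 4 of 4 libraries each. Kirrel3, its relative, was higher with Efna5 (0.74, SE 0.19, adjusted p = 0.0276) and did not pass the test with Epha5 (-0.21, adjusted p = 0.741). The semaphorin Sema7a (1.12, adjusted p = 0.0188) and the protocadherin Pcdh10 (0.96, adjusted p = 0.0177) were higher in Epha5-detected cells. The 2 splits use the same cells, so these values are set side by side and are not independent tests. Of the 14 axon-sorting genes listed, 12 were tested in each split, with 3 higher and 1 lower in each by edgeR, beside the 1.68% and 1.60% of all genes called with Epha5 and the 1.23% and 1.03% with Efna5. DESeq2 called 1 of the 12 with Epha5 and 2 with Efna5. Nqo1, the dorsal marker taken up below, was the gene lower with Epha5 (-0.37, adjusted p = 0.0253, lower in 3 of 4 libraries) and was higher with Efna5 (0.65, adjusted p = 1.2e-08). In cells with few Gap43 UMIs, Kirrel2 kept its calls (0.97, adjusted p = 4.8e-08, and -0.81, adjusted p = 3.1e-06), while Sema7a (0.97, adjusted p = 0.140), Pcdh10 (0.73, adjusted p = 0.330) and Kirrel3 with Efna5 (0.73, adjusted p = 0.0869) did not pass. By edgeR, Nqo1 was there lower with Epha5 (-0.60, adjusted p = 2.7e-06) and higher with Efna5 (0.54, adjusted p = 2.2e-09). Acsm4, another dorsal gene, was lower with Epha5 (-0.45, adjusted p = 0.00205) and did not pass with Efna5 (0.14, adjusted p = 0.626). The part of the dorsal zone in the Epha5 and ephrin differences was not tested.

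Beyond these, a rule took, odorant receptors aside, the 5 called genes at each end of the log2 difference whose sign was the same in every library. In Epha5-detected cells the largest were Pde10a (2.39), a cyclic nucleotide phosphodiesterase, Rasgrp4 (2.15), a Ras exchange factor, S100a3 (2.05), a calcium-binding protein, Pcp4l1 (1.64) and Gm42616 (1.46). The smallest were Gng8, Vim (-1.98), an intermediate filament protein of immature cells, Fabp5 (-1.69), a fatty acid carrier, Gap43 and the cell cycle inhibitor Cdkn1c (-1.42). With Efna5 the largest were Lrrc8b (1.40), an anion channel subunit, the transcription factor Etv3 (1.09), Rims3 (1.05), a protein of the presynaptic active zone, the glutamate transporter Slc1a2 (0.93) and Gprc5c (0.93). The smallest were Smim18 (-2.51), Rprm (-2.14), Idh1 (-1.48), a cytosolic dehydrogenase of isocitrate, S100a5 (-1.23) and Pcp4l1 (-1.22). S100a5, a calcium-binding protein known to follow neuronal activity in these cells, was higher with Epha5 (1.45, SE 0.08, adjusted p = 5.1e-14). Pcp4l1 and S100a5 thus stood on opposite sides of 0 in the 2 splits. In cells with few Gap43 UMIs, S100a5 stood at 0.89 with Epha5 (adjusted p = 2.5e-12, edgeR) and at -1.62 with Efna5 (adjusted p = 7.7e-29).

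**Figure D4:**
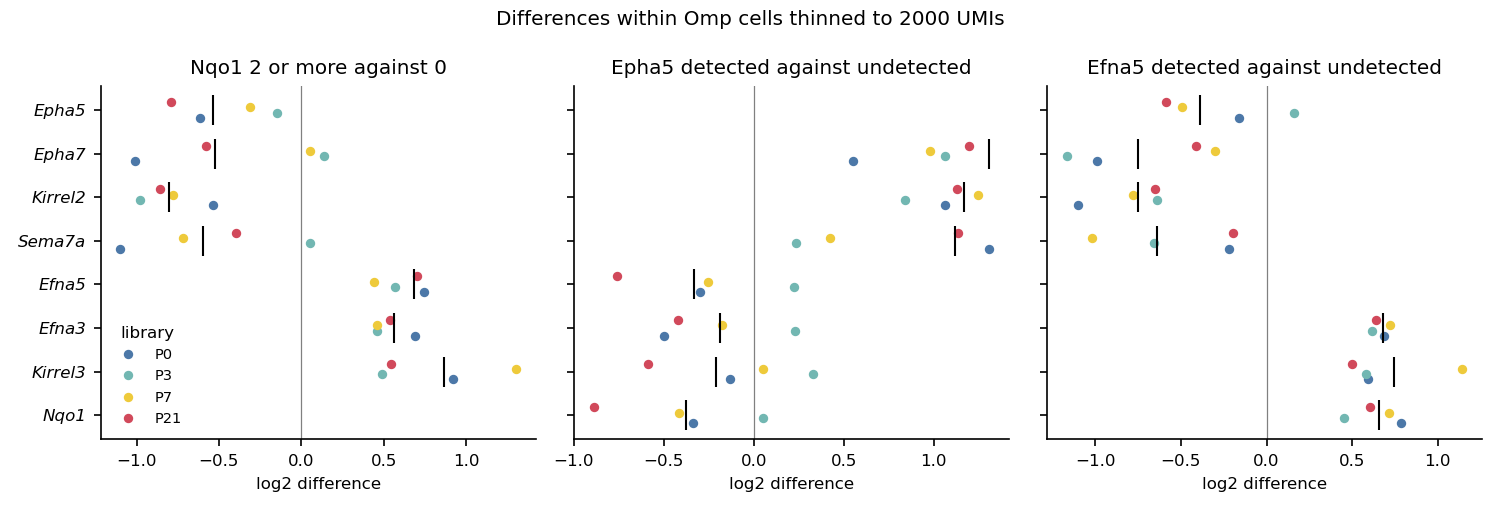
Log2 difference between groups of Omp cells thinned to 2000 UMIs (horizontal axis), for cells with 2 or more Nqo1 UMIs against none, Epha5 detected against undetected and Efna5 detected against undetected. Points are libraries, computed with 10 CPM added to each level, and black ticks are the edgeR estimates; Efna3 and Efna5 lie above 0 in the Nqo1 split in all 4 libraries and Epha5 below. Kirrel2, Kirrel3 and Sema7a were chosen for the plot after their values were seen.

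The position of a neuron in the epithelium was read through Nqo1, an enzyme whose gene marks the dorsal zone. Thinned Omp cells with at least 2 Nqo1 UMIs (297, 252, 165 and 247 cells) were set against those with none (215, 266, 224 and 508). Efna3 was 530, 804, 1009 and 1032 CPM in Nqo1 cells of P0, P3, P7 and P21 and 326, 581, 732 and 709 CPM in the others. Efna5 was 167, 208, 264 and 245 CPM against 95.3, 137, 192 and 147 CPM. Both ephrins were thus higher in Nqo1 cells of every library, Efna3 by 0.56 (SE 0.07, adjusted p = 5.0e-10) and Efna5 by 0.68 (SE 0.11, adjusted p = 7.0e-06) on the log2 scale.

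Epha5 had the opposite sign. It stood at 104, 111, 224 and 249 CPM in Nqo1 cells and at 165, 124, 281 and 439 CPM in the others, lower in 4 of 4 libraries (log2 difference -0.54, SE 0.11, adjusted p = 3.9e-04, edgeR). P21 holds the widest gap: without it the difference was -0.35 with an adjusted p of 0.241, and with DESeq2 it was -0.48 with an adjusted p of 0.554. Epha7 (-0.52, SE 0.24, adjusted p = 0.308) did not pass. Of 6154 genes, 1.85% were called higher and 1.46% lower, among them the dorsal gene Acsm4 (2.76, adjusted p = 7.2e-35) and Ncam2 (-3.44, adjusted p = 4.3e-16), a cell adhesion molecule of ventral axons. Gap43 was lower in Nqo1 cells (-0.33, SE 0.07, adjusted p = 3.7e-04), and in cells with fewer than 3 Gap43 UMIs Epha5 was lower (-0.57, adjusted p = 3.3e-05), where 1.46% and 1.41% of 4103 genes were called.

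Levels were also set side by side for neurons of different odorant receptors. Of 2659 Omp cells, 2134 had a leading receptor, at least 3 UMIs of it and at least 3 times the next, and 761 receptors led at least 1 cell. The 24 receptors with at least 8 cells, 253 cells in all, were compared over the 4 libraries summed. Epha5 ran from 48.4 to 402 CPM over these receptors with a median of 143, Efna5 from 0 to 372 with a median of 178, and Efna3 from 253 to 1581 with a median of 763. Epha7 ran from 0 to 92.0 CPM with a median of 25.4, and 4 receptors had none. No receptor had more than 4 Epha7 UMIs, and the intervals of all 24 overlap.

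The intervals of the highest and lowest receptors in the Epha5 order do not overlap. These receptors are the ends of an order made from the same UMIs, and the intervals cover counting error only. Their separation is therefore no test of a difference between receptors. Olfr653 (chromosome 7, 104577314 to 104584117, mm10) was highest, at 402 CPM from 19 UMIs in 9 cells (242 to 628), followed by Olfr722 at 373 CPM (221 to 589) and Olfr368 at 356 CPM (184 to 622). Olfr1406 (chromosome 1, 173181853 to 173190640) was lowest, at 48.4 CPM from 2 UMIs in 10 cells (5.86 to 175), with Olfr571 at 56.9 (11.7 to 166) and Olfr672 at 58.8 CPM (12.1 to 172). The neighbours in this order overlap throughout. Efna5 stood at 42.3, 186 and 0 CPM in the 3 highest and at 169, 247 and 196 CPM in the 3 lowest. Olfr368, with 0 Efna5 UMIs in 33694, allows up to 109 CPM.

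Across the 24 receptors, Epha5 and Efna5 were correlated at r = -0.52 (rho = -0.49), Epha5 and Efna3 at -0.47 (-0.50), Epha5 and Epha7 at 0.54 (0.38), and Efna3 and Efna5 at 0.65 (0.64). The points share libraries, and few UMIs stand behind each, so the correlations describe these receptors alone. Receptors also differ in which ages gave their cells: 15 of 19 Olfr536 cells and none of the 9 Olfr571 cells came from P21. Setting each level against the UMIs expected from the library and depth of its cells left Epha5 and Efna5 at r = -0.52 and moved the order. Olfr160 then came first, at 1.83 times the expected Epha5 UMIs (1.10 to 2.85), followed by Olfr653 at 1.80 (1.09 to 2.82) and Olfr368 at 1.80 (0.932 to 3.15), with Olfr722 at 1.42 (0.839 to 2.24). The lowest were Olfr672 at 0.297 (0.0612 to 0.867), Olfr826 at 0.298 (0.0614 to 0.870) and Olfr1406 at 0.303 (0.0366 to 1.09), with Olfr571 at 0.471 (0.0970 to 1.38). Nqo1 itself was correlated with Epha5 at r = -0.52 (rho = -0.56), with Epha7 at -0.11, with Efna3 at 0.27 and with Efna5 at 0.20. Against expected UMIs these were -0.41 (rho = -0.51), 0.08, 0.38 and 0.27.

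**Figure D5:**
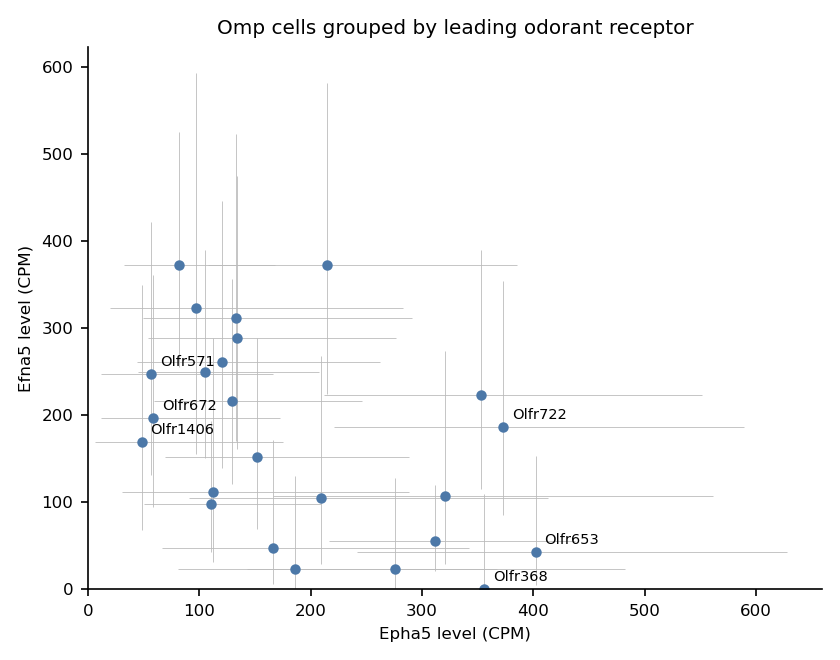
Epha5 level (horizontal axis, CPM) and Efna5 level (vertical axis, CPM) of Omp cells grouped by their leading odorant receptor, for 24 receptors with at least 8 cells, with exact 95% Poisson intervals that cover counting error only. The 3 receptors highest and the 3 lowest in Epha5 are named; Olfr653 has 402 CPM of Epha5 and 42.3 CPM of Efna5, and Olfr571 has 56.9 and 247.

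The rest of the family was little seen. Of the 18 other Eph receptor and ephrin genes, 14 had fewer than 20 UMIs in the Omp-gated and the Gap43-gated cells of every library. Of the 4 above that level, Efnb3, a ligand of the B class, was higher in Omp-gated than in Gap43-gated cells (1.33, adjusted p = 2.6e-04, edgeR), at 37.2, 45.6, 23.3 and 12.6 CPM. Ephb2, a B-class receptor (-2.13, adjusted p = 0.00349), and Efna4, another ephrin-A (-0.91, adjusted p = 0.00472), were lower. Efna2 did not pass the test (0.46, adjusted p = 0.0965), at 35.6, 34.4, 19.5 and 19.5 CPM in Omp-gated cells.

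A list of genes that act downstream of Eph receptors was also followed. Of 35 listed, 34 were in the tables and 26 were tested between Omp-gated and Gap43-gated cells, with 9 higher and 9 lower, in a comparison where 30.1% and 30.7% of all genes were called. Their median log2 difference was 0.02, beside -0.03 over all genes, so neither count nor median is read as a result about the list. The largest were Vav2 (2.99, SE 0.29, adjusted p = 1.9e-06), a guanine nucleotide exchange factor that Eph receptors recruit, and Anks1b (2.57, SE 0.26, adjusted p = 2.2e-06), an adaptor with SAM and PTB domains. Fyn, a Src-family kinase that ephrin-A signalling uses, fell by 1.94 (SE 0.29, adjusted p = 7.4e-05). Within Omp cells, Anks1b was the 1 gene of 19 tested that edgeR called with Epha5 (1.08, SE 0.28, adjusted p = 0.0306), and DESeq2 called none. With Efna5, edgeR called 0 of 18 (3 had an unadjusted p under 0.05, and DESeq2 called 0), and with Nqo1 0 of 15 (1 had an unadjusted p under 0.05, and DESeq2 called 0). Of the other family genes, 2 could be tested within Omp cells, and neither edgeR nor DESeq2 called one in any of the 3 splits. Efnb3 alone had an unadjusted p under 0.05, in the split by Efna5.

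The genes whose levels most resembled each member over 12 points, the 3 neuronal gates in 4 libraries, were ranked among 8424 genes by Pearson's r of log2 levels, as a description. For Epha5 they were Cmip (0.992), Snph (0.992), a syntaphilin that anchors mitochondria in axons, Nceh1 (0.990), a cholesterol ester hydrolase, Cacnb3 (0.988), a calcium channel subunit, and Nwd1 (0.987). For Efna3 they were Mapk15 (0.987), an atypical MAP kinase, Tmod2 (0.980), a tropomodulin that caps actin filaments, Cbx6 (0.979), a Polycomb protein, Oaz2 (0.979), an ornithine decarboxylase antizyme, and Pde4a (0.975), a cyclic AMP phosphodiesterase. For Efna5 they included 6430500D05Rik (0.981), Susd4 (0.979), 1700020I14Rik (0.976) and Epb41l1 (0.975), a protein of the membrane skeleton. For Epha7 they were Dnajb9 (0.934), a chaperone of the endoplasmic reticulum, Elmod3 (0.927), S100a13 (0.927), Stk16 (0.926) and 9530077C05Rik (0.923), less close than for the other members. The points share libraries and stages.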

How the data were processed

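Cells of 4 libraries, 1 per age, were used. The values are whole-number counts of UMIs per gene and cell, as deposited by the authors without normalization. Per the submitters' processing notes, mm10 was the build, and Cell Ranger 2.1.1 and Seurat were used; the sources used here do not give the annotation. The 4 genes, the gates and the lists were chosen with earlier results of these data known. Cells with under 500 genes or over 10% mitochondrial UMIs were removed, and no doublet caller was run. UMIs were summed per library and group of cells and tested with edgeR 4.0.16 (quasi-likelihood, TMM scaling, library as a block, low counts filtered by filterByExpr) in R 4.3.3, with Benjamini-Hochberg adjustment over all genes tested and a threshold of 0.05. The code was tested on simulated counts. A planned gate for earlier cells, its comparison and its points in the ranking of like genes, and 1 gene of that ranking, are not reported here. For splits within Omp cells each cell was thinned to 2000 UMIs, and genes that defined a split were left out. The libraries stand for different ages, and nothing says how many mice each holds. The p-values measure spread over 4 libraries, where edgeR draws the spread of a gene towards that of other genes. The smallest p-values therefore rest largely on this shared spread, not on 4 libraries of the gene alone. Levels are CPM with exact 95% Poisson intervals, ratios have exact conditional binomial intervals and shares exact Clopper-Pearson intervals, all for counting error only. Between ages there is no test; a gene with at least 20 UMIs and 10 CPM in either library was compared, and 2-fold was the limit. Named genes were the members, family genes with at least 20 UMIs, the 3 signalling genes with the largest called change with stage, the 5 largest and 5 smallest differences of the Epha5 and Efna5 splits, the 5 genes most like each member, and listed axon-sorting genes. Alternatives were DESeq2 1.42.0, other size factors, no count filter, no block, each library left out, 5-UMI gates, 3000 UMIs, and cells without candidate doublets (a second receptor of at least 3 UMIs, or at least 5 UMIs of another cell type's markers). Cells with fewer than 3 Gap43 UMIs, shared barcodes and expected receptor UMIs were alternatives chosen after seeing the data.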

Additional observations from a re-analysis of the deposited data

Results flagged for a closer look

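Cells outside the neuronal lineage, gated by at least 5 UMIs of the markers of another type, are in no comparison above. In leukocyte-gated cells, taken as background, Epha5 and Efna5 both stood at 14.6 CPM (95% Poisson interval 6.67 to 27.7). Epha5 was above that in microvillar-gated cells, at 192 CPM (157 to 233) from 104 UMIs in 126 cells over the 4 libraries, and in stromal cells, at 59.9 CPM (52.2 to 68.5). By library, microvillar-gated cells in which Ascl3 or Cftr, genes of ionocyte-like cells, was detected had 222, 246, 247 and 121 CPM of Epha5 at P0, P3, P7 and P21, from 25, 34, 21 and 33 cells. The 14 microvillar-gated cells at P21 with Trpm5, a channel of the chemosensory microvillar type, had 31.7 CPM from 2 UMIs (3.84 to 115). That interval overlaps the 70.3 to 193 CPM of cells with Ascl3 or Cftr at P21, so these levels are not separable. The 1 cell with Trpm5 at P7 had 1 Epha5 UMI. Omp in those with Ascl3 or Cftr was 0 CPM at P3 and P7, 105 at P0 and 199 at P21. After thinning to 2000 UMIs, 28.8% of microvillar-gated cells had an Epha5 UMI (20.8% to 37.9%).

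Efna5 was above the leukocyte level in ensheathing glia, at 96.1 CPM (71.1 to 127), in stromal cells, at 68.6 CPM (60.3 to 77.7), in horizontal basal cells, at 55.2 CPM (44.0 to 68.4), and in sustentacular cells, at 44.1 CPM (28.8 to 64.7). In microvillar-gated cells, where Epha5 was high, Efna5 stood at 12.9 CPM (5.20 to 26.6) and Efna3 at 7.39 CPM (2.01 to 18.9). The intervals of Epha7 and Efna3 overlapped the leukocyte interval in each of the 7 other cell types; the highest of Epha7 was the stromal level of 10.0 CPM (7.03 to 13.9), against a leukocyte interval of 0.0410 to 9.03. These sums pool the libraries, and the differences between cell types were not tested.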

How the results depend on the processing

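The 4 genes kept direction and call in all 44 alternatives of the Omp-gated against Gap43-gated comparison. Over the 4 comparisons, 146 of 160 alternatives for the 4 genes kept both, 8 lost a call, 6 gained one and 0 changed sign. Alternatives that gave no adjusted p for a gene are not counted, among them DESeq2 for Epha7 in the split by Epha5. Counts of called genes within Omp cells moved more, and the cause was not tested. With DESeq2, 30 genes were higher and 21 lower by Nqo1, 40 and 36 by Epha5, and 28 and 31 by Efna5. Without the count filter the counts were 314 and 378, 202 and 394, and 175 and 357. In cells with fewer than 3 Gap43 UMIs they were 60 and 58, 24 and 17, and 29 and 34. At 3000 UMIs, 194 were higher by Epha5, and 48.6% of P21 cells had Epha5. With each library left out, the counts ran from 82 to 105 higher and 55 to 86 lower by Nqo1 (lowest without P3), 41 to 77 and 42 to 84 by Epha5 (lowest without P21), and 41 to 52 and 37 to 43 by Efna5 (lowest higher without P3, lowest lower without P21).

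The labels give no replicate numbers to pair ages by, and in every comparison the library was the block, which pairs the groups of cells of a library. Without that block 14 genes were higher and 15 lower by Nqo1, 5 and 4 by Epha5, and 0 and 0 by Efna5, where edgeR gave 170 and 114 at an unadjusted p under 0.05 and the calls of Epha5, Efna3 and Efna5 by Nqo1, Epha7 by Epha5 and Efna3 by Efna5 were lost.

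Without cells of 3 or more Gap43 UMIs the P21 over P0 ratios were 2.20 for Epha5, 3.85 for Epha7 and 0.980 for Efna5. Other scaling moved levels by up to 0.104 on the log2 scale and kept Epha5 at 2.58 and Epha7 at 2.46. Depth limits Epha7, which had 48 to 306 UMIs in the Omp cells of a library.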
